A study of Homo sapiens with 12 samples.

Results

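The peroxiredoxins and thioredoxins described here were 10 genes, chosen by name from the 54127 gene identifiers counted in the series. They are the 6 peroxiredoxins PRDX1, PRDX2, PRDX3, PRDX4, PRDX5 and PRDX6, the thioredoxins TXN and TXN2, and the thioredoxin reductases TXNRD1 and TXNRD2. All 10 passed the filter on low counts that left 14501 genes tested. The cells were C4-2, a castration-resistant human prostate cancer line that descends from LNCaP. They received either pooled siRNA at 50 nM against choline kinase alpha (CHKA; labelled SiCHKA, here siCHKA) or nontargeting siRNA at 50 nM (labelled SiNTCONTROL, here siNT). Polyadenylated RNA of 6 samples in each group was sequenced. The series asked how CHKA knockdown alters transcription in these cells, and the comparison here asks how the transcripts of this system responded in each compartment where their proteins act. The labels do not say that replicates came from separate cultures, and the study's text calls the samples biological replicates in one place and speaks of triplicate experiments in another, so p-values are taken to measure the spread between these samples, and loss of CHKA cannot be told apart from any other effect of its siRNA pool.

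Peroxiredoxins are abundant enzymes that reduce hydrogen peroxide through a reactive cysteine, called the peroxidatic cysteine. Most are then reduced by thioredoxin, a small protein with a pair of active-site cysteines, and thioredoxin reductase recharges thioredoxin with electrons from NADPH through a selenocysteine near its C-terminus. The cytosol (TXN, TXNRD1) and the mitochondrion (TXN2, TXNRD2) each have their own couple. PRDX1, PRDX2 and PRDX6 act mainly in the cytosol, PRDX3 in the mitochondrion and PRDX4 in the endoplasmic reticulum (ER), while PRDX5 is found in mitochondria, peroxisomes and the cytosol. PRDX6 differs from the others in being reduced with the help of glutathione.

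The coding sequences of the catalytic sites are shown because they carry the residues through which each enzyme works. They were read 5′ to 3′ from the canonical GENCODE 44 transcripts. In the peroxiredoxins the capitals mark the codons of the conserved proline, the conserved threonine and the peroxidatic cysteine, which is codon 52 in PRDX1, 51 in PRDX2, 108 in PRDX3, 124 in PRDX4, 100 in PRDX5 and 47 in PRDX6.
PRDX1: CCTcttgacttcACCtttgtgTGC
PRDX2: CCTctggacttcACTtttgtgTGC
PRDX3: CCTttggatttcACCtttgtgTGT
PRDX4: CCActtgatttcACAtttgtgTGT
PRDX5: CCTggggccttcACCcctggaTGT
PRDX6: CCTcgggactttACCccagtgTGC
In the thioredoxins the capitals mark the codons of both active-site cysteines, within codons 31 to 35 of TXN and 89 to 93 of TXN2.
TXN: tggTGTgggcctTGC
TXN2: tggTGTggacccTGC
In the reductases the capitals mark a cysteine codon and the TGA codon read as selenocysteine, which is the next-to-last codon before the stop, within codons 646 to 650 of TXNRD1 and 521 to 525 of TXNRD2.
TXNRD1: ggcTGCTGAggttaa
TXNRD2: ggcTGCTGAgggtaa

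Reads counted on genes ranged from 10685184 to 24246055 per sample, where 3 counts correspond to 0.124 to 0.281 counts relative to library size (CPM). The lowest of the 10 transcripts, TXNRD2, was never below 69.4 CPM. The targeted transcript, CHKA, was measured at 2.75 ± 1.03 CPM after siCHKA and 40.7 ± 2.55 CPM after siNT (SD, n = 6). All 8 luminal prostate markers were detected, with summed levels of 4413 to 5175 CPM after siCHKA and 5126 to 6564 CPM after siNT. Markers of other cell types were low and differed between the groups, which was not tested for any part in the results below. Summed basal markers (KRT5, KRT14, TP63) were at 1.57 to 2.10 CPM after siCHKA and 0.98 to 1.46 CPM after siNT, fibroblast markers at 25.0 to 32.4 and 15.8 to 22.4 CPM with COL1A1 as the main part (PDGFRB went the other way, at 1.37 and 3.74 CPM), endothelial markers at 1.13 to 1.86 and 2.05 to 3.65 CPM, and leukocyte markers at 3.98 to 5.97 and 2.65 to 3.94 CPM with CD68 as the main part. CD3E had 0 counts in every library, which allows up to 0.281 CPM in the shallowest.

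The siCHKA libraries fell into separate sets. Pairs within replicates 2, 4 and 6 differed by a chi-square per degree of freedom of 2.39 to 4.09 and pairs within replicates 1, 3 and 5 by 4.05 to 9.50, whereas pairs across these sets differed by 12.5 to 24.9. These sets did not overlap in 6 of the 10 transcripts (PRDX1, PRDX3, PRDX5, PRDX6, TXN2 and TXNRD1), beside 47.5% of all genes tested. Pairs of siNT libraries differed as widely, by 2.51 to 30.9. Among siNT libraries, replicates 1, 2 and 3 did not overlap replicates 4, 5 and 6 in 4 transcripts (PRDX2, PRDX3, PRDX6 and TXNRD1), beside 29.4% of all genes tested. This siNT split was not clean over all genes, as replicates 2 and 3 differed by 17.7 and replicates 1 and 4 by 8.61. The members' fold changes, the ratios and the calls of list genes were therefore also computed without each of these sets. Levels per length, shares and likeness were not. The siNT sets were formed after the values were seen, so p-values of fits without either of them are descriptive only. PRDX1, PRDX5, PRDX6 and TXNRD2 kept their direction and call in all 22 alternative fits.

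After siCHKA, 5 of the 10 transcripts were lower, 1 was higher and 4 did not pass the test (edgeR quasi-likelihood test, Benjamini-Hochberg adjusted p below 0.05 over all genes tested). In the background, 30.1% of all genes tested were lower, 32.1% higher and 62.2% changed in either direction. The lower transcripts were PRDX1, PRDX6, PRDX4, TXN2 and TXNRD2, and the higher one was PRDX5. In the cytosolic group 2 of 5 transcripts were lower and none higher, in the mitochondrial group 2 of 3 were lower and none higher, and the ER peroxiredoxin was lower. The groups did not overlap in 4 transcripts (PRDX1, PRDX5, PRDX6 and TXNRD2), beside 40.6% of all genes tested. The median log2 fold change of the 10 was -0.09, and that of all genes tested was 0.03. In bulk samples, a smaller share of cells with a transcript and less of it per cell cannot be told apart.

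**Figure D1:**
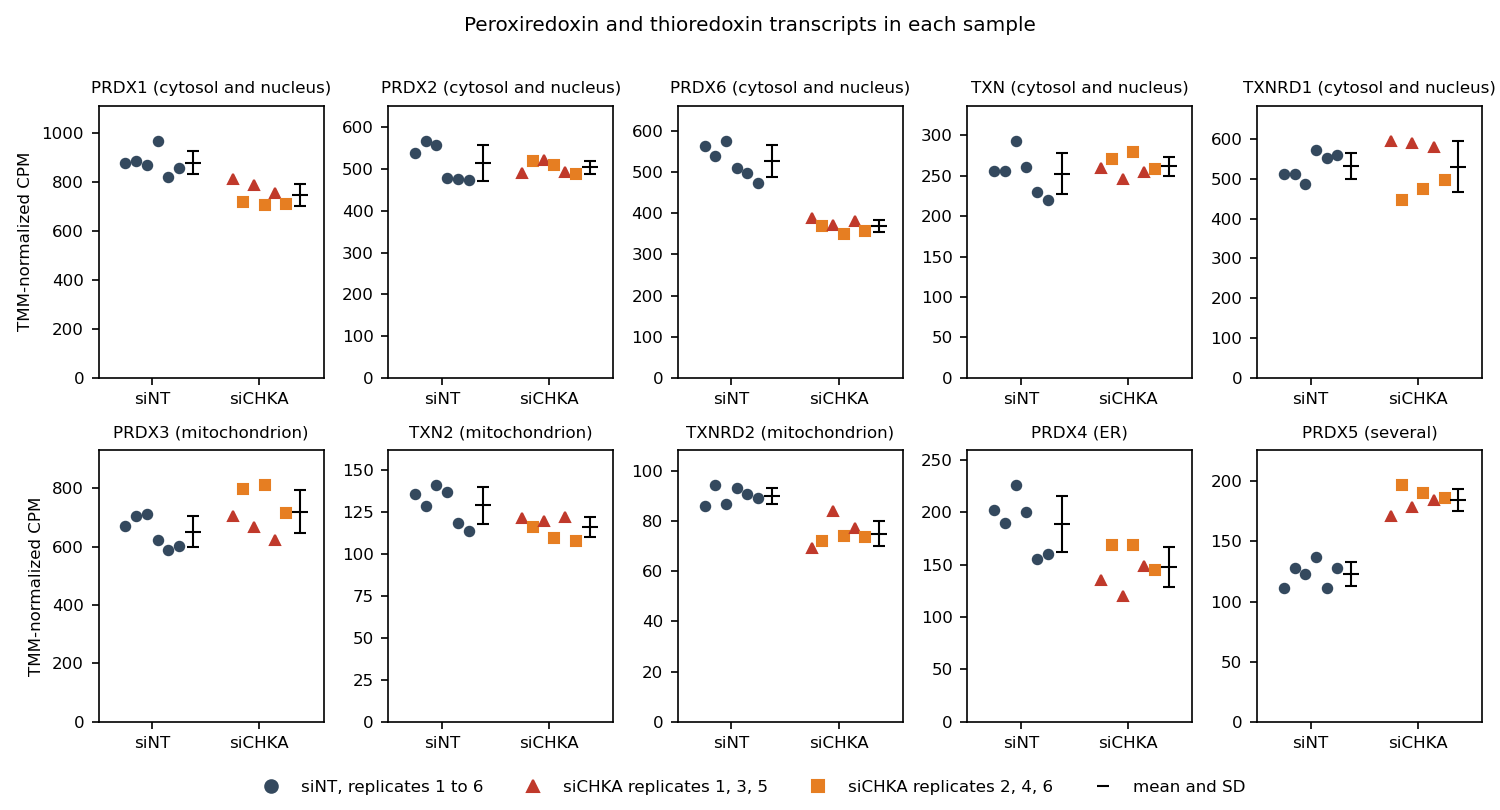
TMM-normalized CPM of each transcript in each of the 12 samples, with siNT as circles, siCHKA replicates 1, 3 and 5 as triangles and 2, 4 and 6 as squares, and the mean and SD of each group beside them; each axis starts at 0. PRDX5 lies above every siNT sample after siCHKA and PRDX6, PRDX1 and TXNRD2 below, and TXNRD1 after siCHKA splits to either side of most siNT samples.

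PRDX6, the peroxiredoxin that uses glutathione and also has phospholipase activity, fell the most. The gene (ENSG00000117592) occupies chromosome 1, bases 173477330 to 173488815 in GRCh38, plus strand. Its lowest, median and highest levels were 351, 370 and 388 CPM after siCHKA and 473, 526 and 575 CPM after siNT. Every siCHKA sample lay below every siNT sample. The means were 370 ± 13.8 and 527 ± 39.6 CPM (SD, n = 6), so that 70.1% of the siNT level was left. On the log2 scale PRDX6 fell by 0.51 (SE 0.06, edgeR adjusted p = 4.29e-07).

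PRDX1, the most abundant cytosolic peroxiredoxin per transcript length in these cells, fell less. The gene (ENSG00000117450) occupies chromosome 1, bases 45510914 to 45542732, minus strand. Levels were 706, 737 and 813 CPM (lowest, median, highest) after siCHKA and 824, 874 and 968 CPM after siNT, without overlap. The log2 fold change was -0.23 (SE 0.05, edgeR adjusted p = 0.00125). It ranged from -0.31 without siCHKA replicates 1, 3 and 5 to -0.16 without replicates 2, 4 and 6. The gene shares 501 bases, 29.8% of its exonic bases, with MMACHC on the opposite strand, and whether the counting used strand is not given in the sources used here.

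PRDX2, its close relative, did not pass the test. The gene (ENSG00000167815) occupies chromosome 19, bases 12796820 to 12801800, minus strand. The siCHKA samples, at 489, 502 and 523 CPM (lowest, median, highest), fell inside the siNT range of 474 to 567 CPM, whose replicates 1, 2 and 3 were at 539 to 567 CPM and 4, 5 and 6 at 474 to 478 CPM. The log2 fold change was -0.03 (95% interval -0.15 to 0.09, edgeR adjusted p = 0.664). Against siNT replicates 1, 2 and 3 alone it was -0.15 (edgeR adjusted p = 0.0289), and against replicates 4, 5 and 6 alone it was 0.07. These siNT sets were formed after the values were seen and PRDX2 differs between them, so that p-value is descriptive only.

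TXN, the cytosolic thioredoxin, was at 246, 259 and 280 CPM after siCHKA and 220, 256 and 293 CPM after siNT. The gene (ENSG00000136810) occupies chromosome 9, bases 110243810 to 110256507, minus strand. All siCHKA values were inside the siNT range, and the log2 fold change was 0.05 (95% interval -0.08 to 0.18, edgeR adjusted p = 0.513). TXN also had the largest share of repeated sequence, with 14.2% of the 40-base windows of its canonical transcript found elsewhere in GRCh38 against 0 to 8.19% in the other 9 transcripts. Reads with several alignments were left out by the counting.

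TXNRD1, the cytosolic thioredoxin reductase, had nearly the same mean in both groups but not the same distribution. The gene (ENSG00000198431) occupies chromosome 12, bases 104215779 to 104350307, plus strand. The siCHKA samples 1 to 6 measured 594, 448, 589, 475, 580 and 497 CPM, and the siNT samples 512, 512, 488, 572, 553 and 559 CPM. Replicates 1, 3 and 5 of siCHKA were above the highest siNT sample, and of the other three, 2 were below the lowest. The means were 531 ± 64.8 and 533 ± 33.4 CPM (SD, n = 6), and the log2 fold change was -0.01 (95% interval -0.16 to 0.15, edgeR adjusted p = 0.952). Without siCHKA replicates 1, 3 and 5 it was -0.18 (edgeR adjusted p = 0.0257), and without replicates 2, 4 and 6 it was 0.14 (edgeR adjusted p = 0.0627), so the direction rested on the set of siCHKA libraries taken.

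The RefSeq promoter table (GRCh38.p14) was searched for the letters TGACNNNGC on both strands, the core of the antioxidant response element through which NRF2, a regulator of redox genes, acts. It held promoters of 7 of the 10 genes, without PRDX1, PRDX6 and TXN2. These genes had 11 promoters, of which 2 (18.2%) held the letters, both of TXNRD1, beside 13.4% of all 35116 promoters. The matches are shown with the searched letters, or their complement on the other strand, in capitals; the first begins 99 bases before the start site of 1 TXNRD1 promoter and the next 8 bases before it, and the last begins 102 bases before the start site of another. A match is a description of letters and shows no binding.
chr12:104215670-104215698, plus strand: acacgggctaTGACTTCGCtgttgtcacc
chr12:104215761-104215789, plus strand: gcgtccttcgGCTCCGTCAgttcccacag
chr12:104286920-104286948, plus strand: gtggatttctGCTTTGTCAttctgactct

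In the mitochondrial group, TXNRD2, the mitochondrial thioredoxin reductase, was lower in every siCHKA sample. The gene (ENSG00000184470) occupies chromosome 22, bases 19875517 to 19941820, minus strand. Levels were 69.4, 73.7 and 83.9 CPM (lowest, median, highest) after siCHKA and 86.0, 89.9 and 94.1 CPM after siNT, without overlap. The log2 fold change was -0.26 (SE 0.05, edgeR adjusted p = 0.000218).

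TXN2, the mitochondrial thioredoxin, was lower by a margin that depended on single libraries and on the filter. The gene (ENSG00000100348) occupies chromosome 22, bases 36467046 to 36481640, minus strand. Levels were 108, 118 and 122 CPM after siCHKA and 114, 132 and 141 CPM after siNT, with 2 siCHKA samples below the lowest siNT sample. The log2 fold change was -0.15 (SE 0.06, edgeR adjusted p = 0.0337). The call was lost without siCHKA replicate 2, 4 or 6 or siNT replicate 1, 3 or 4 (edgeR adjusted p from 0.0518 to 0.0812) and with at least 10 counts required in every sample (-0.13, edgeR adjusted p = 0.0656), and the value fell to -0.09 without siCHKA replicates 2, 4 and 6 (edgeR adjusted p = 0.285) and to -0.10 without siNT replicates 1, 2 and 3 (edgeR adjusted p = 0.281).

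PRDX3, the mitochondrial peroxiredoxin, pointed the other way and did not pass the test. The gene (ENSG00000165672) occupies chromosome 10, bases 119167720 to 119178812, minus strand. Levels were 623, 709 and 809 CPM after siCHKA and 589, 646 and 712 CPM after siNT, and the siCHKA samples above the siNT range were replicates 2, 4 and 6. The log2 fold change was 0.15 (95% interval -0.01 to 0.30, edgeR adjusted p = 0.0872). It was 0.24 without siCHKA replicates 1, 3 and 5 (edgeR adjusted p = 0.00784), 0.18 without siCHKA replicate 5 alone (edgeR adjusted p = 0.0309), 0.24 without siNT replicates 1, 2 and 3 (edgeR adjusted p = 0.0275) and 0.04 without either siCHKA replicates 2, 4 and 6 or siNT replicates 4, 5 and 6.

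PRDX4, the peroxiredoxin of the ER, where it takes up peroxide made during oxidative protein folding, was lower after siCHKA. The gene (ENSG00000123131) occupies chromosome X, bases 23664262 to 23686397, plus strand. Levels were 120, 147 and 169 CPM (lowest, median, highest) after siCHKA and 155, 195 and 226 CPM after siNT, and 4 of the 6 siCHKA samples were below the lowest siNT sample. The log2 fold change was -0.35 (SE 0.10, edgeR adjusted p = 0.00429). Without siCHKA replicates 1, 3 and 5 it was -0.24 (edgeR adjusted p = 0.0531), and without siNT replicates 1, 2 and 3 it was -0.23 (edgeR adjusted p = 0.0909), while the other alternative fits kept the call.

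PRDX5, the peroxiredoxin shared between mitochondria, peroxisomes and cytosol, was the member that rose. The gene (ENSG00000126432) occupies chromosome 11, bases 64318121 to 64321811, plus strand. Levels were 171, 185 and 197 CPM after siCHKA and 111, 125 and 137 CPM after siNT, and every siCHKA sample was above every siNT sample. The means were 184 ± 8.78 and 123 ± 10.0 CPM (SD, n = 6), which put the siCHKA level at 150% of the siNT level. This is a log2 fold change of 0.58 (SE 0.06, edgeR adjusted p = 1.24e-07).

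**Figure D2:**
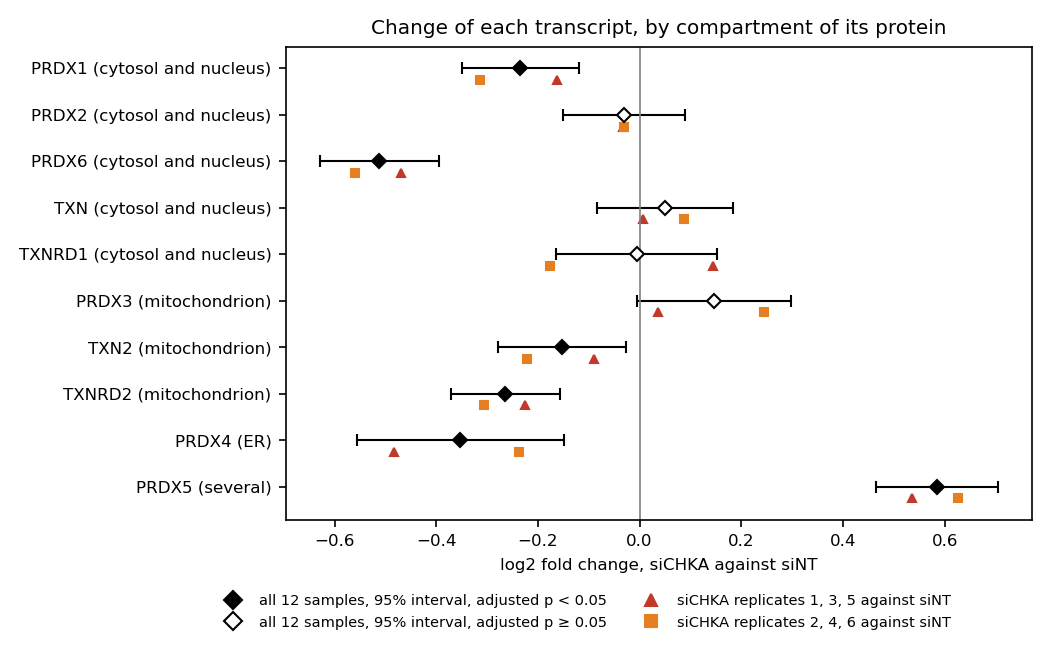
Log2 fold change of each transcript, grouped by the compartment of its protein, with diamonds for all 12 samples (filled where the adjusted p was below 0.05, bars for the 95% interval) and triangles or squares for siCHKA replicates 1, 3 and 5 or 2, 4 and 6 alone against siNT. PRDX5 (0.58) and PRDX6 (-0.51) stand farthest from 0, and the sets of TXNRD1 lie on opposite sides of 0.

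Dividing CPM by the length of the canonical transcript allowed levels to be compared between genes. In siNT samples the order of levels in CPM per kilobase was PRDX1 (932), PRDX2 (557), PRDX3 (419), TXN (343), PRDX6 (312), PRDX4 (197), PRDX5 (143), TXNRD1 (138), TXN2 (96.6) and TXNRD2 (46.3). The neighbours PRDX3 and TXN, TXN and PRDX6, and PRDX5 and TXNRD1 overlapped in range over the siNT samples, and the others did not. With the union of exons as the length, TXN and PRDX6 stood above PRDX3, and PRDX5 above PRDX4, so the order of these transcripts depends on the length used.

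**Figure D3:**
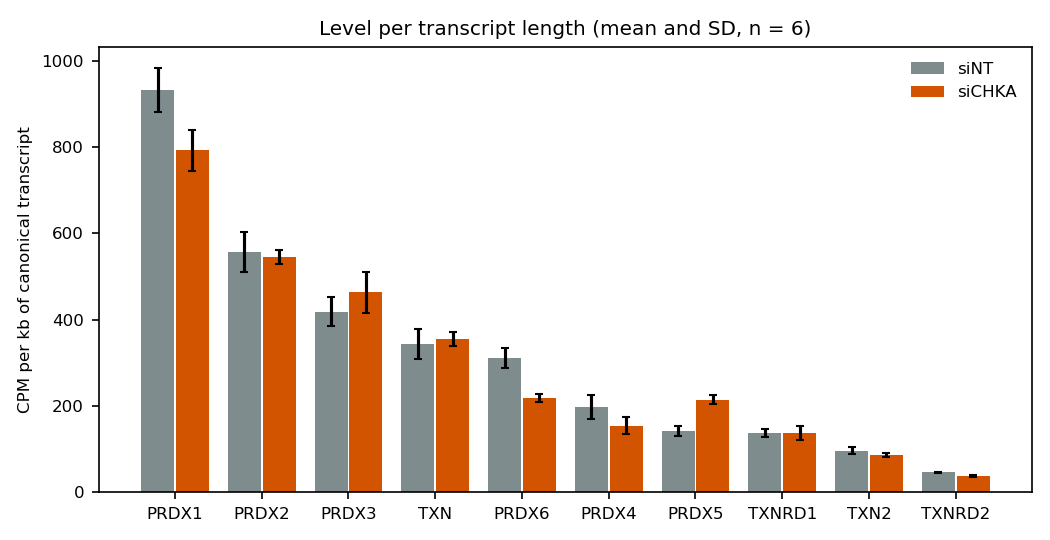
Level of each transcript in CPM per kilobase of canonical transcript, as the mean and SD of 6 siNT and 6 siCHKA samples, in order of the siNT level and on an axis from 0. PRDX5 stands below PRDX4 in siNT samples (143 and 197) and above it after siCHKA (214 and 155). With the union of exons as the length, PRDX5 was already above PRDX4 in siNT samples (143 and 102).

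Per length, the peroxiredoxin transcripts of a sample summed to 2389 ± 55.7 CPM per kilobase after siCHKA and 2560 ± 145 CPM per kilobase after siNT (SD, n = 6). As shares of that sum, PRDX1 made up 33.2% after siCHKA and 36.5% after siNT, PRDX6 9.16% and 12.2%, and PRDX4 6.47% and 7.68%. PRDX5 made up 8.98% and 5.59%, PRDX3 19.4% and 16.3%, and PRDX2 22.8% and 21.7%. These shares rest on the length of the canonical transcript and would differ with the union of exons. They are a description and were not tested.

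Ratios within a sample, which need no scaling between samples, were used to compare compartments directly. Of 5 ratios, 4 differed between the groups (exact permutation test over all splits of 6 and 6, two-sided, adjusted over the 5 ratios, where the smallest p possible is 0.00216). The log2 ratio of PRDX3 to PRDX1 was -0.28 to 0.20 after siCHKA and -0.63 to -0.29 after siNT, without overlap, a difference of 0.38 (exact p = 0.00216, adjusted p = 0.00722). The mitochondrial peroxiredoxin was thus higher relative to the cytosolic one in each siCHKA sample. It was also higher relative to PRDX2, by 0.17 (exact p = 0.0238, adjusted p = 0.0298), with overlap.

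The thioredoxin couple went the opposite way. The log2 ratio of TXN2 to TXN was -1.35 to -1.04 after siCHKA and -1.05 to -0.92 after siNT, a difference of -0.20 (exact p = 0.00433, adjusted p = 0.00722). That of TXNRD2 to TXNRD1 was -3.10 to -2.64 after siCHKA and -2.65 to -2.44 after siNT, a difference of -0.25 (exact p = 0.00433, adjusted p = 0.00722). The mitochondrial partner was lower relative to its cytosolic counterpart in both, with a slight overlap of the groups. PRDX4 relative to PRDX1 differed by -0.11 (exact p = 0.392), and this value turned to 0.08 without siCHKA replicates 1, 3 and 5 and to 0.02 without siNT replicates 1, 2 and 3.

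The size of these ratios moved with the siCHKA set. Without replicates 2, 4 and 6 the difference was 0.20 for PRDX3 to PRDX1, 0.07 for PRDX3 to PRDX2 and -0.10 for TXN2 to TXN, and without replicates 1, 3 and 5 it was 0.56, 0.27 and -0.31. For TXNRD2 to TXNRD1 it was -0.38 without replicates 2, 4 and 6 and -0.13 without replicates 1, 3 and 5 (exact permutation, adjusted p = 0.0744). All 4 kept their direction in these alternatives, but none passed the exact permutation test without siCHKA replicates 2, 4 and 6, siNT replicates 1, 2 and 3 or siNT replicates 4, 5 and 6, the lowest adjusted p being 0.0595. With a set left out fewer splits exist and the smallest possible p is higher, so missing the threshold does not by itself show a smaller difference.

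**Figure D4:**
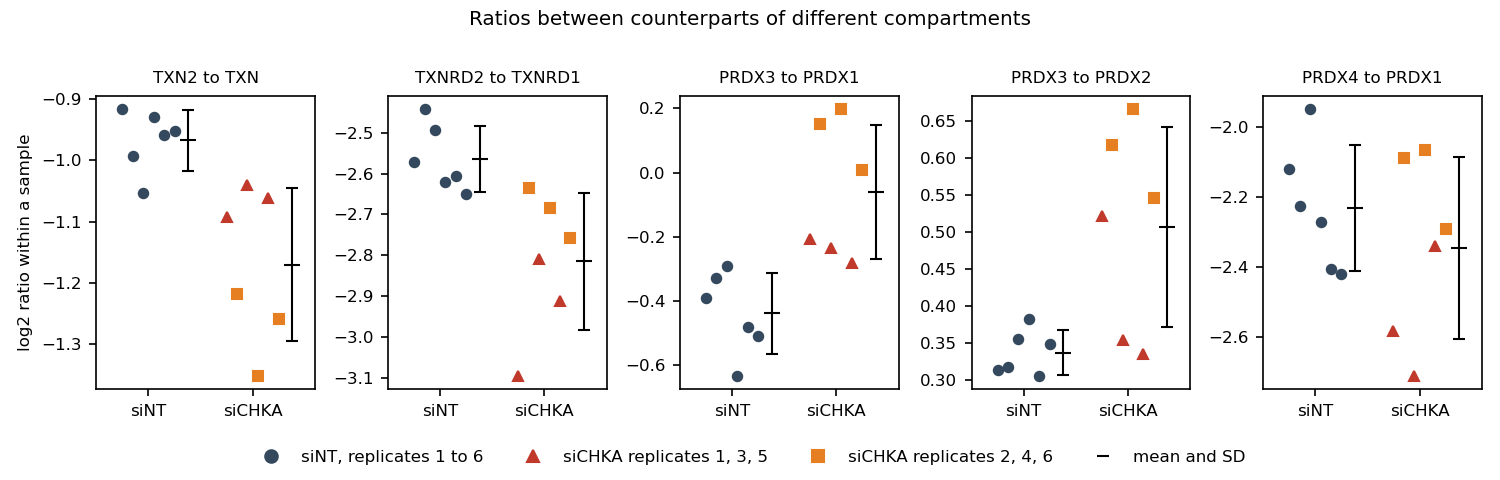
Log2 ratio of a transcript to its counterpart in another compartment within each of the 12 samples, with the mean and SD of each group; symbols mark siNT samples and both siCHKA sets, and the axes do not start at 0. The ratio of PRDX3 to PRDX1 does not overlap between groups, and siCHKA replicates 2, 4 and 6 (0.01 to 0.20) lie above replicates 1, 3 and 5 (-0.28 to -0.21).

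Thioredoxin reductase draws on NADPH, and the genes that supply it were examined by compartment. In the cytosol all 5 genes of the list that were tested fell, beside 30.1% of all genes tested. Their median log2 fold change was -0.63, beside 0.03 over all genes tested. PGD, an enzyme of the oxidative pentose phosphate pathway, was at 103 ± 10.0 CPM after siCHKA and 253 ± 11.3 CPM after siNT (SD, n = 6; log2 fold change -1.30, SE 0.06, edgeR adjusted p = 1.15e-11). IDH1, the cytosolic NADP-dependent isocitrate dehydrogenase, fell by 0.86 on the log2 scale (352 and 639 CPM), and MTHFD1, of folate metabolism, by 0.63 (194 and 299 CPM). NADK and ME1 were the others that fell. All 5 were called in 21 of 22 alternative fits, and 4 were called without siCHKA replicates 2, 4 and 6. ALDH1L1 did not pass the filter on low counts.

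In the mitochondrion, 2 of 7 tested NADPH genes fell, 3 rose and 2 did not pass the test, with a median of 0.09. The shares over all genes tested were 30.1% lower and 32.1% higher. IDH2, the mitochondrial isocitrate dehydrogenase, was at 17.9 ± 0.98 CPM after siCHKA and 290 ± 14.2 CPM after siNT (SD, n = 6; log2 fold change -4.02, SE 0.06, edgeR adjusted p = 4.83e-18), and the groups did not overlap. MTHFD2 fell by 0.30 on the log2 scale. MTHFD2L rose by 0.84, ALDH1L2 by 0.46 and ME2 by 0.19. NNT, the transhydrogenase of the inner membrane, was at 57.5 and 54.2 CPM (edgeR adjusted p = 0.0983).

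Of the regulators, 3 of 4 tested genes rose and 1 fell in every alternative fit. Among all genes tested, 32.1% rose and 30.1% fell. The sestrins are stress-induced proteins linked to the upkeep of peroxiredoxins. SESN3 rose from 299 ± 53.0 to 950 ± 132 CPM (SD, n = 6; log2 fold change 1.67, SE 0.11, edgeR adjusted p = 1.21e-09) and SESN1 from 35.1 to 53.7 CPM (0.61), whereas SESN2 fell from 29.8 to 21.3 CPM (-0.48). TXNRD3, the reductase best known from testis, rose from 21.6 to 32.1 CPM (0.58). TXNIP and SRXN1 were not analysed here.

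Of the 47 list genes called in these comparisons, 34 kept their call and direction in all 22 alternative fits. Calls were common, at 62.2% of all genes tested (30.1% lower, 32.1% higher). Counts in lists this short are therefore a description and were not tested against these shares. Thioredoxin-like genes rose in 4 of 6 cases and none fell, with NXN (log2 fold change 0.62), TXNDC17 (0.51) and TXNL4B (0.45) as those with the smallest p. The fourth call, TXNL4A (0.13), was lost in 15 of 22 alternative fits, and without siCHKA replicates 2, 4 and 6 a member of this list was lower. Of 4 glutaredoxins, the small oxidoreductases that depend on glutathione, GLRX5 (-0.52), GLRX3 (-0.31) and GLRX (-0.22) fell, and GLRX2 did not pass the test (0.09, edgeR adjusted p = 0.289). Among 9 genes of proteins that thioredoxin reduces or binds, 3 fell, 3 rose and 3 did not pass. RRM2, the small subunit of ribonucleotide reductase, fell by 2.62 on the log2 scale (46.6 and 286 CPM), RRM1, the large subunit, by 0.80, and the methionine sulfoxide reductase MSRB1 by 0.31. Other methionine sulfoxide reductases rose, MSRB3 by 0.83, MSRB2 by 0.55 and MSRA by 0.30, but the MSRA call was lost in 12 of 22 alternative fits, 8 of them with a single library left out. Of 2 tested peroxiredoxin-like genes, PRXL2B fell by 1.03, and PRXL2C rose by 0.15, a call that 15 of 22 alternative fits did not make.

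In a list of genes of the ER and the wider secretory pathway, taken beside PRDX4, 4 of 6 tested genes fell and none rose. For this and the next lists, the shares over all genes tested were 30.1% lower and 32.1% higher. QSOX1 (log2 fold change -0.88), QSOX2 (-0.67) and ERO1B (-0.36) are oxidases that make disulfides and peroxide. The ERO1B call was lost in 2 of 22 alternative fits. The count of genes of this list that fell was 2 without siCHKA replicates 1, 3 and 5 and 5 without replicates 2, 4 and 6. Of 6 other tested peroxide and superoxide enzymes, catalase (CAT, 0.35), GPX4 (0.24) and GPX1 (0.20) rose and SOD1 (-0.21) fell, and 2 did not pass the test. SOD2 was not analysed here, and GPX2 did not pass the filter on low counts. Among 7 genes for making selenoproteins, the class to which both reductases belong, SEPHS1 (-0.60) and EEFSEC (-0.27) fell, SEPSECS (0.39) and PSTK (0.30) rose, and 3 did not pass. The PSTK call was lost in 7 of 22 alternative fits, and the count of genes that rose was 1 without siNT replicate 5, siNT replicate 6 or siNT replicates 4, 5 and 6.

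Of 6 further NRF2 target genes, 5 fell and 1 rose, beside 30.1% and 32.1% of all genes tested. Their median log2 fold change was -0.35. GCLC, the catalytic subunit of glutathione synthesis, fell by 0.61, OSGIN1 by 0.39 and the quinone reductase NQO1 by 0.26, and HMOX1, heme oxygenase, rose by 0.94 (79.2 ± 17.8 and 41.6 ± 13.6 CPM; SD, n = 6; edgeR adjusted p = 0.000208). The count of those that fell was 2 without siCHKA replicates 2, 4 and 6, 4 without replicates 1, 3 and 5 and 3 without siNT replicates 4, 5 and 6. As with TXNRD1, NQO1, HMOX1, GCLM and OSGIN1 were higher in siCHKA replicates 1, 3 and 5 than in 2, 4 and 6 without overlap. SLC7A11 was the reverse, and GCLC overlapped. These sets did not overlap in 47.5% of all genes tested. HMOX1 was at 93.1 to 95.7 CPM in replicates 1, 3 and 5 and 53.3 to 71.3 CPM in 2, 4 and 6.

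**Figure D5:**
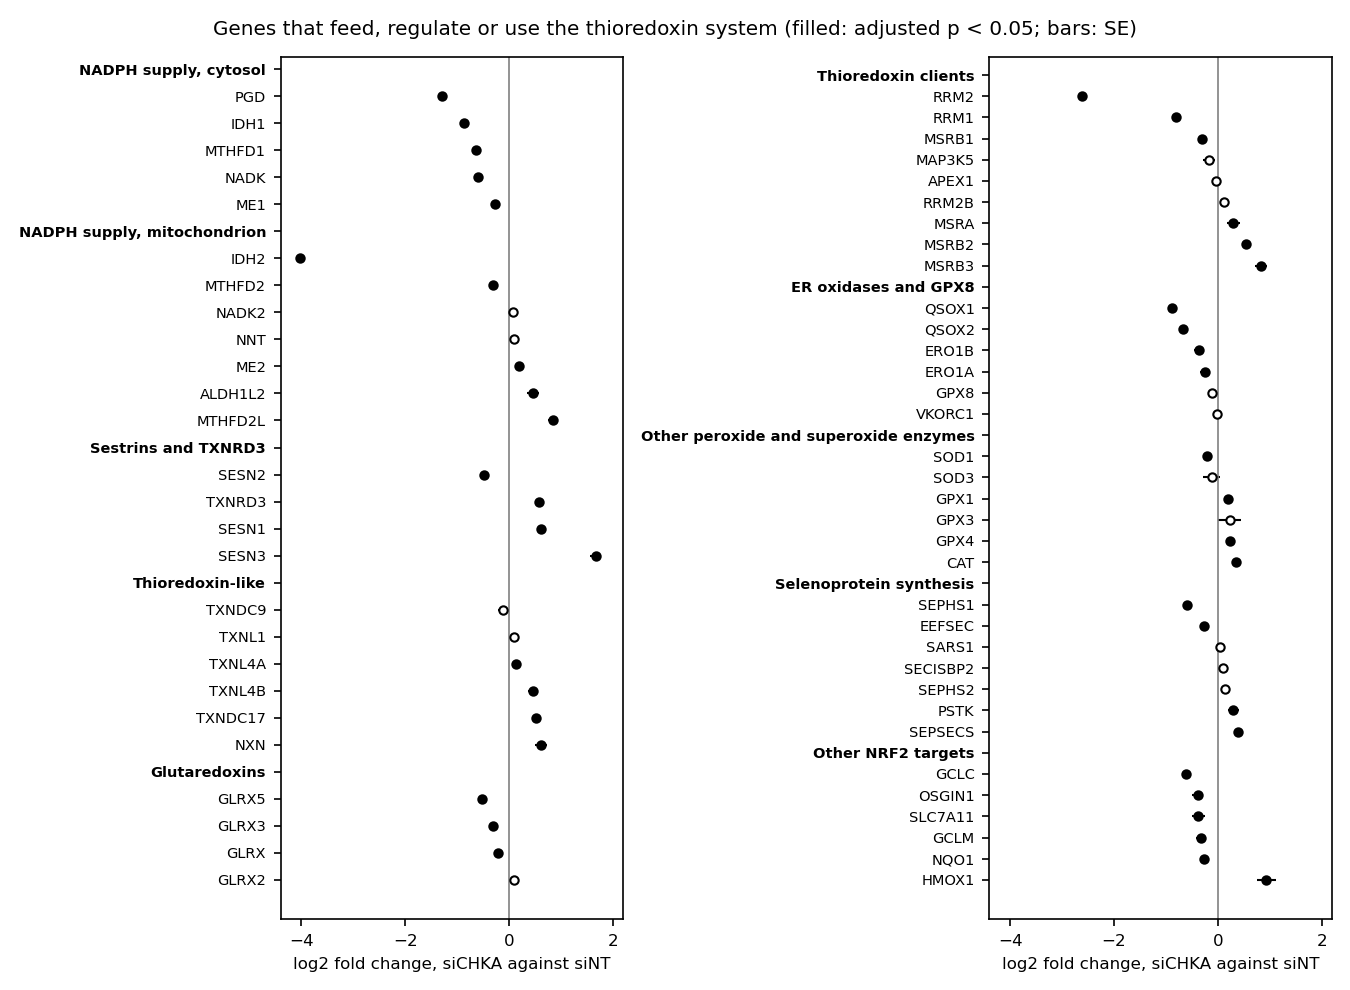
Log2 fold change of each tested gene in 10 lists around the thioredoxin system, with bars for the SE and filled points where the adjusted p was below 0.05. All 5 cytosolic NADPH genes shown lie below 0, and IDH2 (-4.02) lies farthest from 0.

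Finally, the transcripts most like the largest riser and the largest faller were sought among the 9629 genes whose mean reached 10 CPM, by Pearson's r over the 12 samples after each group's mean was subtracted. For PRDX5 they were UBAC2 (r = 0.89), MXD4 (0.89) and PRKAR1B (0.89), and for PRDX6 they were RER1 (0.96), H2BC12 (0.95) and RRP36 (0.93). These values share libraries and depth and are descriptive. PRKAR1B rose with PRDX5 (log2 fold change 0.67) and RRP36 fell with PRDX6 (-0.35), whereas MXD4 fell by 0.17, UBAC2 rose by 0.12, and RER1 and H2BC12 did not pass the test.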

How the data were processed

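Polyadenylated RNA (TruSeq) of 6 siCHKA and 6 siNT samples was sequenced as single-end reads of 40 bases. Alignment by the authors was to GRCh37 with TopHat2 2.0.4, followed by counting on Ensembl genes with HTSeq 0.5.3p9. They deposited raw, unnormalized counts, with 4 count files for each sample. Labels and methods name different RNA kits. The 4 count files were summed, since they differed by sampling noise. Symbols and GRCh38 coordinates came from GENCODE 44 by identifier (82.8% matched).

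Counts were analysed with edgeR 4.0.16 (R 4.3.3): filterByExpr, TMM, and the quasi-likelihood test without covariates, adjusted by Benjamini-Hochberg over 14501 genes. CPM are TMM-normalized counts, and the prior count of log2 CPM was 2. Precision from depth (10685184 to 24246055 reads) covers counting error only. Each SE is the fold change divided by the root of F. Ratios used exact permutation tests (Python 3.11.15, numpy 2.4.6). Fits were tested on simulated data in which far fewer genes changed than were called here, so that test does not cover changes as widespread as these.

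Members and gene lists were chosen with earlier results of these data known. Named genes were the 10 members, CHKA, up to 3 list genes per direction with the smallest p among those called, and the 3 genes most like the largest riser and faller. NADK, ME1, GCLM, SLC7A11, NNT, GLRX2, TXNL4A and PDGFRB were named after their values were seen. Alternatives were RLE normalization, DESeq2 1.42.0, other filters, a replicate block, 1 count file, a minimum change, another prior count, and libraries left out. The siNT sets of 3 and the list counts were added after seeing the data. A few results are not reported here.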

Additional observations from a re-analysis of the deposited data

How the results depend on the processing

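The cause of the changes below was not tested. With a minimum log2 change of 0.5, 2025 genes were lower and 2348 higher, and 1 member was lower (PRDX6). The count of higher members was 2, with PRDX3 added, with 1 count file, without siCHKA replicate 5 (range without single replicates 1 to 2), without siCHKA replicates 1, 3 and 5 and without siNT replicates 1, 2 and 3, and without these siNT replicates 3 members were lower, against 6 without siNT replicates 4, 5 and 6. Without single replicates, 4 to 5 members were lower.

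The value of PRDX2 reversed to 0.0028 with 1 count file and to 0.0717 without siNT replicates 1, 2 and 3, and that of TXN to -0.0471 without siNT replicates 4, 5 and 6. TXNRD1 reversed to 0.0190 with at least 10 counts in every sample, 0.0114 with 1 count file, 0.145 without siCHKA replicates 2, 4 and 6 and 0.0637 without siNT replicates 4, 5 and 6, and was -0.0417 to 0.0399 without single replicates.

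With a replicate block (same-numbered samples, sign-flip test) the ratios TXN2 to TXN (-0.20), TXNRD2 to TXNRD1 (-0.25), PRDX3 to PRDX1 (0.38) and PRDX3 to PRDX2 (0.17) kept their values, with an adjusted p of 0.0781. With only 6 pairs the smallest p this test can give is higher than that of the test over all splits. Missing the threshold therefore does not by itself show weaker ratios. Same-numbered samples did not deviate together (r from -0.40 to 0.32 over 6 pairs, with 1 of 6 closest to its own number). No pairing by number was thus seen, though so few pairs cannot show that there was none. The block changed no member's call. Without siCHKA replicates 1, 3 and 5 the value was -0.13 for TXNRD2 to TXNRD1 and reversed to 0.0841 for PRDX4 to PRDX1. Without siCHKA replicates 2, 4 and 6 the first 4 ratios were -0.0971, -0.376, 0.198 and 0.0670. Without siNT replicates 1, 2 and 3 they were -0.22, -0.19, 0.48 and 0.16, with 0.0200 for PRDX4 to PRDX1, and without siNT replicates 4, 5 and 6 they were -0.18, -0.31, 0.28 and 0.18. In these last 3 alternatives no ratio passed the adjusted threshold, the lowest adjusted p being 0.0595, but fewer splits exist there and the smallest possible p is higher. Other fits moved the median of all genes to between 0.02 and 0.09. Depth did not limit the members, the lowest of which was at 69.4 CPM.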
